A study of Homo sapiens with 12 samples.

Results

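The difference between cisplatin-resistant derivatives and their parents that was common to 2 human pancreatic ductal adenocarcinoma lines was taken from all 12 arrays of the series. The change from the parental line was computed per gene in each line, the 2 changes were averaged with equal weight, and the genes with the same sign in both were set apart. All 18417 genes measured by a probe set with exactly 1 gene symbol entered, each with its brightest probe set over the 12 arrays. Of them, 7779 (42.2%) had the same sign in both derivatives, 3390 positive (18.4%) and 4389 negative (23.8%). The account leads with the 435 genes, 2.36% of those tested, that passed in each line on its own and in 1 direction: 233 rose in both (1.27%) and 202 fell in both (1.1%).

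The 4 groups hold 3 arrays each. AsPC1 and BxPC3 are the parental lines. AsPC1-R and BxPC3-R are their derivatives with resistance to cisplatin, maintained in 1.67 µM and 0.60 µM of the drug. All 4 were adherent cultures harvested before confluence, and the derivatives spent their last passage without drug. Each line gave 1 derivative, so resistance and the history of that derivative cannot be told apart. Nothing in the labels names separate cultures behind the replicates. The p-values below therefore cover the spread from array to array alone, which may be technical.

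Cisplatin is a platinum compound that forms crosslinks in DNA, which nucleotide excision repair and homologous recombination remove. It enters cells in part through the copper transporter SLC31A1, leaves through pumps such as ATP7A, ATP7B and ABCC2, and is bound in the cytosol by thiols of glutathione and metallothioneins. Lipid synthesis is set by the transcription factors SREBP-2 and SREBP-1, the products of SREBF2 and SREBF1. When sterols are scarce these leave the endoplasmic reticulum, where INSIG1 otherwise holds them back, and switch on genes of cholesterol and fatty acid synthesis.

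Levels are log2 values with array medians of 6.48 to 6.65, and 3 arrays per group limit the precision. Of the 2 genes deleted in BxPC3, SMAD4 was 4.70 there against 9.90 in AsPC1, and CDKN2A 6.22 against 7.44. Changes at levels up to 6.22 are therefore uncertain in size. Calls there are uncertain too, as limma called a fall of CDKN2A in BxPC3-R, from 6.22 to 5.75 (adjusted p = 0.0249). Among genes named below and not marked there, this covers the parental levels of CNN3, CPA4, ABCC4, TIGAR, SAA1, SAA2 and C3 in AsPC1. The same holds for IL1RAPL2, GSTA4, PKIB and DCLK1 in BxPC3 and for MT1M in both lines. The 6 ductal epithelial markers (KRT7, KRT8, KRT18, KRT19, EPCAM and CDH1) averaged 9.24 to 12.81 over all arrays. Markers of endothelium averaged 5.12 to 7.05, of fibroblasts 4.02 to 8.35, of leukocytes 3.22 to 9.68 and of acinar and endocrine cells 4.13 to 6.72. None of these other markers was called by limma in both derivatives in 1 direction (0 at an unadjusted p under 0.05 too). In single lines, 3 of 5 endothelial markers fell in BxPC3-R, and 2 ductal markers fell in AsPC1-R and 3 rose in BxPC3-R. These counts do not measure purity. BxPC3 replicate 2 stood apart: 50 of the 50 transcripts most in excess in AsPC1 over BxPC3-R had their highest BxPC3 reading on it, with a median excess of 0.83. Without it, 216 genes rose and 158 fell in both, 196 and 153 of them among those called with it.

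The shared change was smaller than the part of the change that differed between the lines. Over all genes, the mean resistance effect held 5.98% of the sum of squares and the part of the change that differed between the lines 10.1%. The spread within groups held 7.41%, and the term for line, over parental and resistant arrays together, 76.5%. The changes in AsPC1-R and BxPC3-R, which share no arrays, had a Pearson correlation across genes of -0.255 and a Spearman correlation of -0.172. Genes are not independent replicates, and the value is a description. Opposite calls outnumbered shared ones: 631 genes rose in AsPC1-R and fell in BxPC3-R (3.43%), and 360 did the reverse (1.95%). The plot of one change against the other shows these genes beside the shared ones. The shared genes moved by little: the smaller of a gene's 2 changes had a median size of 0.38 among the rises and 0.39 among the falls, and reached 1.5-fold in 42 of 233 and 27 of 202. The change was the larger one in AsPC1-R for 130 of the rises and 92 of the falls. All arrays of both derivatives lay beyond all arrays of their parents in 228 rises and 199 falls, where 3.25% and 2.85% of all genes did so. This separation is largely built in, as the genes were chosen by calls on the same arrays. The same holds for each shared gene described below.

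**Figure D1:**
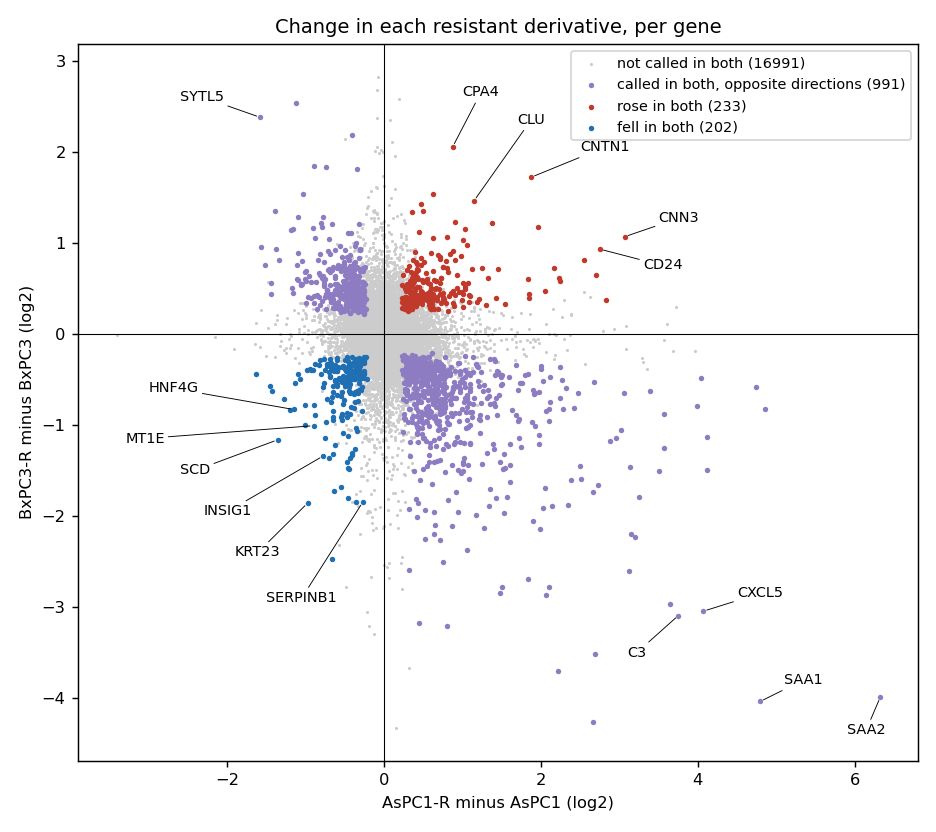
Change in BxPC3-R minus BxPC3 (vertical, log2) against AsPC1-R minus AsPC1 (horizontal, log2), 1 point per gene, coloured by the calls in both derivatives at an adjusted p under 0.05 by limma. The 233 genes that rose in both and the 202 that fell in both lie near 0, with median changes of 0.51 and 0.45 and of -0.47 and -0.48 in AsPC1-R and BxPC3-R, while SAA2 among the opposite calls stood at 6.33 and -3.99.

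A mean over the lines does not by itself show a shared change. By limma, 3350 genes (18.2%) had a mean change that passed at an adjusted p of 0.05, with 1779 rises (9.66%) and 1571 falls (8.53%). An additive model of line and resistance, with no term for the difference between the lines, called 1178. Single lines gave 2138 rises (11.6%) and 1592 falls (8.64%) in AsPC1-R, and 1795 rises (9.75%) and 2031 falls (11%) in BxPC3-R. Of the 3350, 435 (13%) were called in both lines in 1 direction, 1152 (34.4%) in AsPC1-R alone, 1315 (39.3%) in BxPC3-R alone, 237 (7.07%) in both but in opposite directions and 211 (6.3%) in neither. In 1063 (31.7%) the 2 changes had opposite signs. SAA2, an acute-phase gene, gives the extreme: it read 5.22, 5.94 and 5.06 in AsPC1, 11.57, 11.86 and 11.76 in AsPC1-R, 12.20, 12.10 and 12.18 in BxPC3 and 8.11, 8.25 and 8.15 in BxPC3-R, and the mean of changes of 6.33 and -3.99 still passed, at 1.17 (SE 0.12) with an adjusted p of 1.64e-05, though not in the additive model (adjusted p = 0.734). The closely related SAA1 can share its probes, and another probe set of SAA2 changed by 2.39 and -2.96. All 435 shared genes had a called mean change. In 98 of them (22.5%) the sizes in the 2 lines also differed by the test of that difference, which called 4685 of all genes (25.4%).

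Of 18 measured genes of cholesterol synthesis and uptake, 8 fell in both derivatives, where 1.1% of all genes did. None rose in both (0 at an unadjusted p under 0.05), and the median mean change was -0.357 against -0.013 over all genes. They span the pathway: SREBF2, which encodes its transcription factor, INSIG1, which retains that factor, the synthesis enzymes HMGCS1, IDI1, SQLE, MSMO1 and DHCR7, and STARD4, which carries cholesterol between membranes. In 16 of the 18 both changes were negative (23.8% of all genes), and 11 had a called mean fall (8.53% of all genes). On 9 of the 18, all derivative arrays lay below all arrays of their parent in each line (2.85% of all genes). None of the 18 had the reverse.

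SREBF2 read 8.21, 8.30 and 8.17 on the AsPC1 arrays and 7.47, 7.40 and 7.59 on the AsPC1-R arrays. In the other line it read 8.32, 8.43 and 8.15 on the BxPC3 arrays and 7.24, 7.37 and 7.39 on the BxPC3-R arrays. Every derivative array lay below every array of its parent, and the parents themselves were at like levels. The change was -0.74 (SE 0.09) in AsPC1-R and -0.97 (SE 0.09) in BxPC3-R (adjusted p = 5.08e-05 and 4.55e-06), a fall of 1.67-fold in AsPC1-R and 1.96-fold in BxPC3-R, and the difference between the lines was not called (adjusted p = 0.221). INSIG1 read 9.48, 9.27 and 9.24 in AsPC1, 8.55, 8.58 and 8.52 in AsPC1-R, 9.02, 9.04 and 8.98 in BxPC3 and 7.67, 7.68 and 7.67 in BxPC3-R. The BxPC3-R arrays stood lowest and almost on 1 value. INSIG1 fell by more in BxPC3-R than in AsPC1-R, with changes of -0.78 (SE 0.08) in AsPC1-R and -1.34 (SE 0.08) in BxPC3-R and an adjusted p of 0.00184 for the difference.

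Among the enzymes, HMGCS1, which makes HMG-CoA, the precursor of mevalonate, read 10.09, 10.26 and 10.32 in AsPC1, 9.87, 9.88 and 9.64 in AsPC1-R, 10.36, 10.63 and 10.56 in BxPC3 and 9.47, 9.66 and 9.79 in BxPC3-R. Its groups did not overlap within either line, and it changed by -0.43 (SE 0.11) in AsPC1-R and -0.88 (SE 0.11) in BxPC3-R. Without AsPC1-R replicate 3 the call in AsPC1-R was lost (adjusted p = 0.0626). MSMO1, a sterol demethylase, read 9.45, 9.30 and 9.38 in AsPC1, 8.82, 8.82 and 8.54 in AsPC1-R, 9.32, 9.13 and 9.27 in BxPC3 and 8.20, 8.34 and 8.36 in BxPC3-R. DHCR7, which makes cholesterol in the last step, read 8.99, 8.70 and 9.01 in AsPC1, 8.15, 8.29 and 8.33 in AsPC1-R, 8.80, 8.95 and 8.89 in BxPC3 and 8.03, 7.91 and 7.95 in BxPC3-R. For both genes all 6 derivative arrays lay below all 6 parental arrays. The change of MSMO1 was -0.65 (SE 0.10) in AsPC1-R and -0.94 (SE 0.10) in BxPC3-R, and that of DHCR7 was -0.65 (SE 0.10) in AsPC1-R and -0.91 (SE 0.10) in BxPC3-R. IDI1, an isomerase of isoprenoid units, moved less, by -0.44 (SE 0.08) in AsPC1-R and -0.45 (SE 0.08) in BxPC3-R. SQLE, the squalene epoxidase, changed by -0.42 (SE 0.09) in AsPC1-R and -0.35 (SE 0.09) in BxPC3-R. STARD4 fell by more in AsPC1-R, with changes of -1.28 (SE 0.11) in AsPC1-R and -0.72 (SE 0.11) in BxPC3-R and an adjusted p of 0.018 for the difference. Of the others, LSS, the lanosterol synthase, changed by -0.23 and -0.61 in AsPC1-R and BxPC3-R and passed in BxPC3-R, as did FDPS, the farnesyl diphosphate synthase (-0.23 and -0.43). CYP51A1, another sterol demethylase, passed in AsPC1-R (-0.35 and -0.08). EBP (-0.02 and -0.08), NSDHL (-0.11 and -0.18) and MVD (-0.05 and -0.15) were negative in both and passed in neither. SC5D (-0.17 and 0.30) and PMVK (-0.19 and 0.07) had changes of opposite sign and passed in neither.

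The 250 bases before the start of SREBF2, INSIG1 and HMGCS1 are shown because these 3 genes hold the factor, its brake and an early enzyme of the pathway that fell. They are from RefSeq on GRCh38.p14, chr22:41832855-41833104 on the plus strand for SREBF2, chr7:155297628-155297877 on the plus strand for INSIG1 and chr5:43313413-43313662 on the minus strand for HMGCS1. Capitals mark matches to the sterol regulatory element written as TCACNCCAC and to the CCAAT box, the site of the factor NF-Y, on either strand (ATTGG is a CCAAT box on the other strand). No match shown overlaps another.
SREBF2: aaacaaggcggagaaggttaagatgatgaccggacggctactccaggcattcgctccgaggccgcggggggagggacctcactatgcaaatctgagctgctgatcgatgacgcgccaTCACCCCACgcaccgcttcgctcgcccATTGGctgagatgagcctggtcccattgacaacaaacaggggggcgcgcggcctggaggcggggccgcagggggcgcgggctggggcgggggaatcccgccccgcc
INSIG1: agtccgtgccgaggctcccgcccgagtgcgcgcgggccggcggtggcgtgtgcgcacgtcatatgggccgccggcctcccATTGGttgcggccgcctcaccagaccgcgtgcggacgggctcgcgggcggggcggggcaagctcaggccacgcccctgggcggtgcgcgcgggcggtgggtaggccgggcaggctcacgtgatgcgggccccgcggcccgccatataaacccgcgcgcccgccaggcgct
HMGCS1: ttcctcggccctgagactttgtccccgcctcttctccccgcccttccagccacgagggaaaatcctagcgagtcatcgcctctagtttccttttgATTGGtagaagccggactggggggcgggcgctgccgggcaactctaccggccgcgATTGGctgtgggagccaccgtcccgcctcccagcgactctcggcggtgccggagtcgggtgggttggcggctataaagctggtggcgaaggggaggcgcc

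SREBF2 held 1 match to the sterol regulatory element, 133 to 125 bases before the start, and 1 CCAAT box. INSIG1 held 1 CCAAT box and HMGCS1 held 2. Of 14237 genes with such a window, 0.871% held the element and 34.4% a CCAAT box. Of the 17 measured cholesterol genes with a window, 1 held the element and 14 (82.4%) a CCAAT box, and of the 7 that fell in both with a window, 6 did. Matches of letters are a description of these windows.

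Of 22 measured genes of fatty acid synthesis and desaturation, 7 fell in both lines and 1, ELOVL1, rose. Over all genes 1.1% fell and 1.27% rose in both. The median mean change of the list was -0.136. SCD, the desaturase that makes oleate from stearate, had the largest shared fall of all genes by the smaller of its 2 changes. It read 11.75, 11.71 and 11.72 on the AsPC1 arrays and 10.44, 10.36 and 10.31 on the AsPC1-R arrays. It read 12.04, 11.82 and 11.66 on the BxPC3 arrays and 10.67, 10.65 and 10.70 on the BxPC3-R arrays. Both parents stood at similar levels of SCD, and all 6 derivative arrays lay below all 6 parental arrays. The change was -1.36 (SE 0.09) in AsPC1-R and -1.16 (SE 0.09) in BxPC3-R (adjusted p = 1.64e-07 and 1.01e-06), a fall of 2.56-fold in AsPC1-R and 2.24-fold in BxPC3-R.

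FADS2, which desaturates polyunsaturated fatty acids, read 9.38, 9.47 and 9.41 in AsPC1, 8.36, 8.25 and 8.06 in AsPC1-R, 7.15, 7.05 and 7.08 in BxPC3 and 6.20, 6.33 and 6.24 in BxPC3-R. It stood lower in BxPC3 than in AsPC1 and fell from both levels: it changed by -1.20 (SE 0.09) in AsPC1-R and -0.84 (SE 0.09) in BxPC3-R. ACSL1, which activates long-chain fatty acids, read 6.93, 6.97 and 6.99 in AsPC1, 6.19, 5.86 and 5.81 in AsPC1-R, 8.55, 8.88 and 8.69 in BxPC3 and 7.86, 7.87 and 8.02 in BxPC3-R and changed by -1.01 (SE 0.11) in AsPC1-R and -0.79 (SE 0.11) in BxPC3-R. Its AsPC1-R arrays all lay below 6.22, as did the lowest BxPC3-R array of FADS2, so these sizes are uncertain. ACSS2, which makes acetyl-CoA from acetate, changed by -0.48 (SE 0.10) in AsPC1-R and -0.87 (SE 0.10) in BxPC3-R. The carboxylase gene ACACA changed by -0.38 (SE 0.09) in AsPC1-R and -0.42 (SE 0.09) in BxPC3-R. The synthase gene FASN changed by -0.30 (SE 0.08) in AsPC1-R and -0.35 (SE 0.08) in BxPC3-R, and its call in AsPC1-R was lost without AsPC1-R replicate 2 (adjusted p = 0.0628). SREBF1, the factor of this branch, changed by -0.63 (SE 0.09) in AsPC1-R and -0.40 (SE 0.09) in BxPC3-R and read 7.48, 7.63 and 7.62 in AsPC1, 6.92, 6.94 and 6.97 in AsPC1-R, 7.53, 7.42 and 7.37 in BxPC3 and 7.05, 7.17 and 6.89 in BxPC3-R. All 6 derivative arrays of SREBF1 stood below all 6 parental arrays.

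The branch did not move as 1 block. ELOVL1, an elongase of very long chains, rose by 0.33 (SE 0.10) in AsPC1-R and 0.58 (SE 0.10) in BxPC3-R, a call in AsPC1-R that was lost without AsPC1 replicate 1 or 2 or AsPC1-R replicate 2 or 3 (adjusted p up to 0.138). ELOVL6, the elongase next to SCD in the pathway, changed by -0.31 and 0.93 and ME1, which supplies NADPH, by 1.68 and -0.34, each called in both lines with opposite signs. FADS1, the partner of FADS2, fell in BxPC3-R alone (0.21 and -0.89), and ACLY, which makes cytosolic acetyl-CoA, rose in AsPC1-R alone (0.44 and -0.15). GPAT3, which adds the first fatty acid to glycerol-3-phosphate, rose: it read 9.12, 9.25 and 9.40 in AsPC1, 10.64, 10.60 and 10.66 in AsPC1-R, 8.49, 9.12 and 8.91 in BxPC3 and 9.99, 10.03 and 10.13 in BxPC3-R. Its changes of 1.38 (SE 0.13) in AsPC1-R and 1.21 (SE 0.13) in BxPC3-R were the second largest shared rise by the smaller change, and no array of a derivative overlapped its parent.

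**Figure D2:**
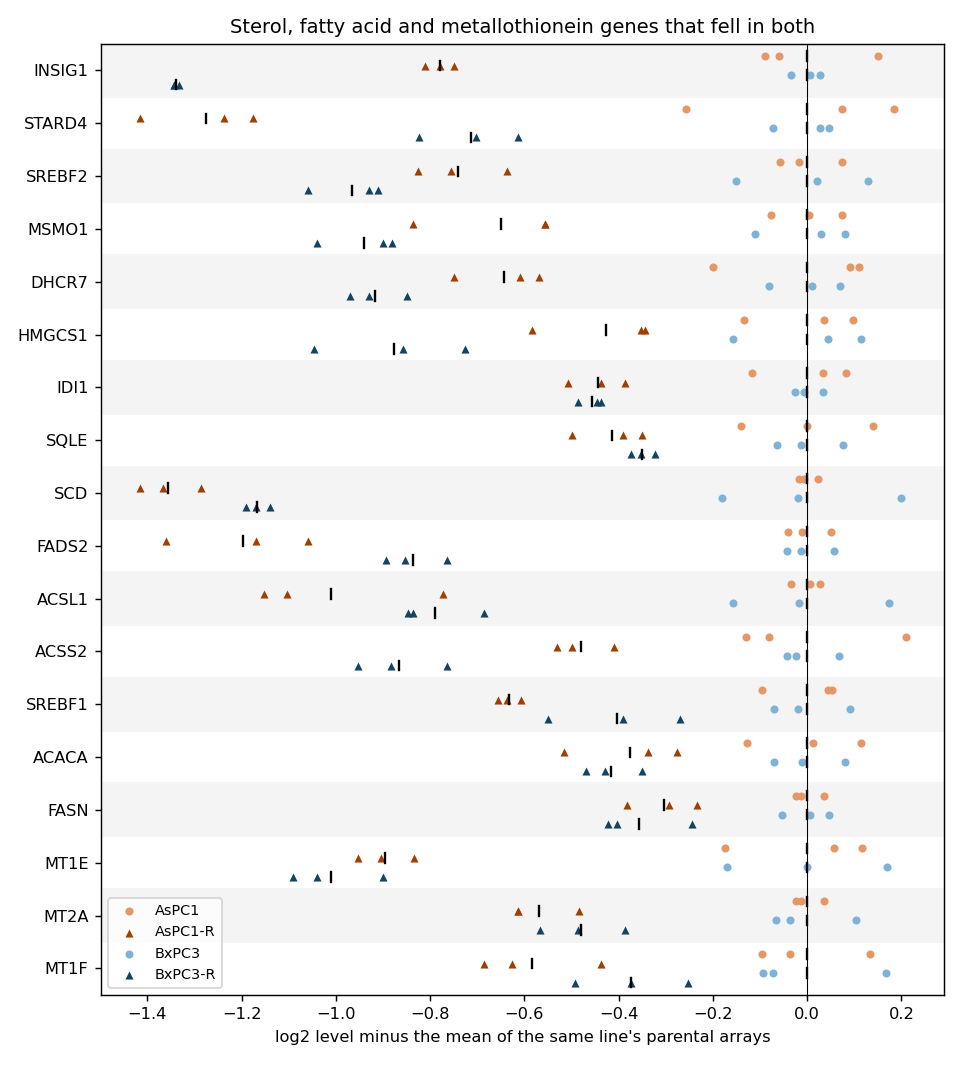
Level on each array minus the mean of the same line's parental arrays (horizontal, log2) for the cholesterol, fatty acid and metallothionein genes that fell in both derivatives (vertical); circles are parental and triangles derivative arrays, 3 per group, and black ticks are group means. Every triangle lies left of every circle of its line, from SCD at -1.36 and -1.16 to FASN at -0.30 and -0.35. The genes were chosen by calls on the same arrays, so this separation is largely built in.

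Metallothioneins are small cysteine-rich proteins that bind zinc, copper and also platinum. Of 10 genes on their list, MT1E, MT2A and MT1F, 3 in all, fell in both lines (1.1% of all genes did). In both lines 0 rose at either an adjusted or an unadjusted p under 0.05. The median mean change was -0.313, and 7 had a called mean fall (8.53% of all genes). Changes were negative in both lines for 9 of the 10 (23.8% of all genes). The tenth, MTF1, which encodes the factor that switches metallothioneins on, changed by 0.08 and 0.17 and passed in neither. MT1E read 8.41, 8.18 and 8.47 in AsPC1, 7.52, 7.40 and 7.45 in AsPC1-R, 9.26, 9.43 and 9.60 in BxPC3 and 8.39, 8.53 and 8.34 in BxPC3-R. The derivatives lay below their parents without overlap, and the change was -0.90 (SE 0.10) in AsPC1-R and -1.01 (SE 0.10) in BxPC3-R (adjusted p = 3.27e-05 and 1.16e-05). MT2A, the most abundant form in many tissues, read 9.79, 9.84 and 9.78 in AsPC1, 9.19, 9.19 and 9.32 in AsPC1-R, 11.82, 11.99 and 11.85 in BxPC3 and 11.50, 11.32 and 11.40 in BxPC3-R and changed by -0.57 (SE 0.08) in AsPC1-R and -0.48 (SE 0.08) in BxPC3-R. MT1F changed by -0.59 (SE 0.10) in AsPC1-R and -0.37 (SE 0.10) in BxPC3-R, a call in BxPC3-R that was lost without BxPC3 replicate 1 or BxPC3-R replicate 1 or 3 (adjusted p = 0.091, 0.0952 and 0.0543).

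These genes are close copies of each other, so probes can be shared between them and their separate sizes are uncertain. The other probe sets of MT2A changed by -1.54 and -0.5 and by -0.4 and -0.46, all falls. MT1X fell in BxPC3-R alone (-0.15 and -0.53) and MT1H in AsPC1-R alone (-0.38 and -0.18). MT1G, MT1M and MT1B were negative in both lines (-0.41 and -0.35, -0.25 and -0.27 and -0.30 and -0.28) and passed in neither. MT3 changed by -0.15 and -0.04.

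The window of MT2A, chr16:56608334-56608583 on the plus strand (RefSeq, GRCh38.p14), is shown because metallothionein promoters are the textbook case of repeated metal response elements, the sites of MTF-1. Capitals mark matches to the core of that element, TGCACNC or TGCGCNC, on either strand, and no match overlaps another.
MT2A: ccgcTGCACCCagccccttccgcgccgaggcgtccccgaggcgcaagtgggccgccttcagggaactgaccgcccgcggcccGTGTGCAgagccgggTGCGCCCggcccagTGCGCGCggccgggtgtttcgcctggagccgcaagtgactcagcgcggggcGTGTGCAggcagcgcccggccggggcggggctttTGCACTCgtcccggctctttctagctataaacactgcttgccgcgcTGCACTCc

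It held 7 matches, where 29.7% of the 14237 windows held at least 1. Of the 5 genes of this list with a window, 4 held 1 or more.

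The largest shared changes are ranked here by the smaller of the 2 changes. At least 2-fold and called in both lines were 7 rises (0.038% of genes) and 2 falls (0.0109%). The 7 were CNTN1, GPAT3, IL1RAPL2, CLU, CNN3, ROR1 and MAPRE2, and the 2 falls were SCD and PECR. CNTN1 encodes contactin 1, an adhesion protein anchored in the outer membrane. It read 4.65, 4.76 and 4.51 in AsPC1, 6.67, 6.32 and 6.56 in AsPC1-R, 7.53, 7.66 and 7.81 in BxPC3 and 9.39, 9.38 and 9.38 in BxPC3-R. The derivatives lay above their parents by 1.88 (SE 0.10) in AsPC1-R and 1.72 (SE 0.10) in BxPC3-R (adjusted p = 2.11e-08 and 7.01e-08), though the AsPC1 level is under 6.22 and the size there is uncertain.

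ROR1, a receptor for WNT5A, read 8.52, 8.53 and 8.55 in AsPC1, 9.52, 9.40 and 9.77 in AsPC1-R, 6.62, 7.64 and 7.21 in BxPC3 and 8.42, 8.31 and 8.20 in BxPC3-R. The BxPC3 arrays of ROR1 were spread over about 1 log2 unit, yet the highest of them lay below all BxPC3-R arrays, and the change was 1.03 (SE 0.19) in AsPC1-R and 1.16 (SE 0.19) in BxPC3-R. IL1RL1, the receptor for interleukin 33, was high in BxPC3 and low in AsPC1, with changes of 1.05 (SE 0.14) in AsPC1-R and 0.97 (SE 0.14) in BxPC3-R. IL1RAPL2, of the same receptor family, changed by 1.96 (SE 0.19) in AsPC1-R and 1.17 (SE 0.19) in BxPC3-R. CD24, a surface glycoprotein used as a stem cell marker, read 3.74, 3.50 and 3.90 in AsPC1, 6.35, 6.66 and 6.38 in AsPC1-R, 10.41, 10.02 and 10.25 in BxPC3 and 11.20, 11.08 and 11.19 in BxPC3-R. Its rise in AsPC1-R began at 3.71, far under 6.22, whereas in BxPC3-R it rose by 0.93 (SE 0.12) from an already high level. ADAM32, of a family of membrane proteins with a metalloprotease-like domain, changed by 0.91 (SE 0.10) in AsPC1-R and 1.22 (SE 0.10) in BxPC3-R from low levels in AsPC1.

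CNN3, an actin-binding calponin, read 6.32, 6.20 and 6.01 in AsPC1, 9.30, 9.22 and 9.22 in AsPC1-R, 10.37, 10.45 and 10.42 in BxPC3 and 11.53, 11.45 and 11.46 in BxPC3-R. It was low in AsPC1 and high in BxPC3, and it rose in both, by 3.07 (SE 0.09) in AsPC1-R and 1.07 (SE 0.09) in BxPC3-R. MAPRE2, which binds growing microtubule ends, read 10.35, 10.43 and 10.34 in AsPC1, 11.42, 11.28 and 11.45 in AsPC1-R, 10.58, 10.75 and 10.69 in BxPC3 and 11.73, 11.66 and 11.72 in BxPC3-R. All 6 derivative arrays lay above all 6 parental arrays. The change was 1.01 (SE 0.08) in AsPC1-R and 1.03 (SE 0.08) in BxPC3-R, closer to each other than 1 SE, from levels well above 6.22. NEXN, an actin-binding protein, changed by 0.88 (SE 0.15) in AsPC1-R and 0.91 (SE 0.15) in BxPC3-R at low levels.

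CLU, the extracellular chaperone clusterin, read 9.52, 9.37 and 9.66 in AsPC1, 10.68, 10.67 and 10.64 in AsPC1-R, 9.83, 9.92 and 9.78 in BxPC3 and 11.28, 11.31 and 11.33 in BxPC3-R. All 6 derivative arrays of CLU stood above all 6 parental arrays. The change was 1.15 (SE 0.09) in AsPC1-R and 1.46 (SE 0.09) in BxPC3-R (adjusted p = 3.28e-07 and 4.81e-08), a rise of 2.21-fold in AsPC1-R and 2.75-fold in BxPC3-R. CPA4, a carboxypeptidase, read 6.08, 5.26 and 5.77 in AsPC1, 6.31, 6.80 and 6.63 in AsPC1-R, 8.45, 8.71 and 8.75 in BxPC3 and 10.58, 10.72 and 10.76 in BxPC3-R. It rose by more in BxPC3-R, with changes of 0.88 (SE 0.17) in AsPC1-R and 2.05 (SE 0.17) in BxPC3-R and an adjusted p of 0.00295 for the difference. LXN, which encodes latexin, an inhibitor of carboxypeptidases of this family, went the other way: it read 10.96, 11.01 and 11.21 in AsPC1, 10.22, 10.36 and 9.97 in AsPC1-R, 7.22, 7.31 and 7.01 in BxPC3 and 6.16, 6.36 and 6.34 in BxPC3-R and changed by -0.87 (SE 0.12) in AsPC1-R and -0.89 (SE 0.12) in BxPC3-R. Its derivatives lay below their parents without overlap in both lines, although the 2 lines differ in level by more than the change.

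**Figure D3:**
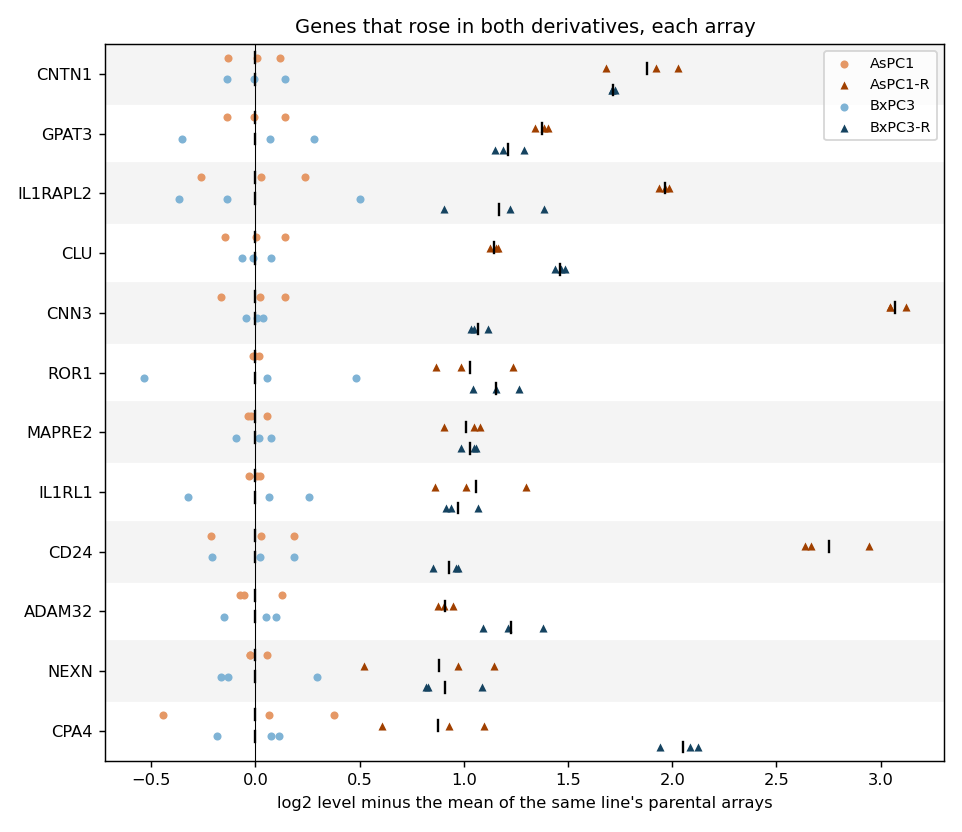
Level on each array minus the mean of the same line's parental arrays (horizontal, log2) for the 12 genes with the largest shared rises by the smaller change (vertical); circles are parental and triangles derivative arrays, 3 per group, and black ticks are group means. No triangle overlaps the circles of its line, which is largely built in, as the genes were chosen by calls on the same arrays. CNN3 and CD24 show the widest gap between the 2 derivatives.

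The other large shared falls were of mixed function. PECR, a peroxisomal reductase of fatty acyl chains, read 9.95, 9.76 and 10.16 in AsPC1, 8.95, 8.98 and 8.93 in AsPC1-R, 7.82, 7.89 and 7.67 in BxPC3 and 6.78, 6.81 and 6.79 in BxPC3-R. Its arrays did not overlap within either line, and it changed by -1.0 (SE 0.10) in AsPC1-R and -1.0 (SE 0.10) in BxPC3-R (adjusted p = 5.55e-06 and 6.85e-06). KRT23, an epithelial keratin, read 8.25, 8.13 and 7.97 in AsPC1, 6.92, 7.42 and 7.09 in AsPC1-R, 8.77, 8.56 and 8.23 in BxPC3 and 6.61, 6.59 and 6.79 in BxPC3-R. It fell by more in BxPC3-R, with changes of -0.97 (SE 0.15) in AsPC1-R and -1.86 (SE 0.15) in BxPC3-R and an adjusted p of 0.00572 for the difference. HNF4G, a nuclear receptor of gut and pancreas, read 10.82, 11.04 and 10.76 in AsPC1, 9.77, 9.65 and 9.74 in AsPC1-R, 8.31, 8.24 and 8.21 in BxPC3 and 7.31, 7.61 and 7.34 in BxPC3-R. Its arrays did not overlap between parent and derivative in either line, and it changed by -1.15 (SE 0.10) in AsPC1-R and -0.83 (SE 0.10) in BxPC3-R. It was the 1 shared fall among 19 endodermal transcription factors. HFE, the regulator of iron uptake mutated in haemochromatosis, changed by -0.89 (SE 0.09) in AsPC1-R and -0.78 (SE 0.09) in BxPC3-R. SEL1L3 changed by -0.75 (SE 0.10) in AsPC1-R and -1.15 (SE 0.10) in BxPC3-R. SERPINB1, an inhibitor of neutrophil proteases, the 1 shared fall among 11 serpins of clade B, changed by -0.27 (SE 0.07) in AsPC1-R and -1.85 (SE 0.07) in BxPC3-R. Its call in AsPC1-R was lost without AsPC1-R replicate 1 (adjusted p = 0.0683).

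Shared changes in platinum transport and DNA repair are given next as counts. The shares of all genes to set beside these and the later list counts are 1.27% that rose in both and 1.1% that fell. Of 16 platinum and copper transport genes, 2 rose in both and 0 fell (0 at an unadjusted p under 0.05 too). On their own, 10 rose and 1 fell in AsPC1-R (11.6% and 8.64% of all genes), and 2 rose and 4 fell in BxPC3-R (9.75% and 11%). The list held 3 genes that rose in AsPC1-R while falling in BxPC3-R (3.43% of all genes). Its median mean change was 0.054. ATP7A, the copper pump that also exports platinum, read 9.68, 9.83 and 9.97 in AsPC1, 10.36, 10.23 and 10.16 in AsPC1-R, 8.81, 9.0 and 8.94 in BxPC3 and 9.53, 9.64 and 9.71 in BxPC3-R. Its arrays did not overlap within either line, and it rose by 0.42 (SE 0.10) in AsPC1-R and 0.71 (SE 0.10) in BxPC3-R (adjusted p = 0.00645 and 0.00012). ABCC4, an exporter of nucleotides and conjugates, read 5.24, 5.45 and 5.52 in AsPC1, 6.76, 6.67 and 6.67 in AsPC1-R, 8.66, 8.90 and 8.84 in BxPC3 and 9.17, 8.95 and 9.23 in BxPC3-R. Its rise of 0.31 (SE 0.10) in BxPC3-R was lost without any 1 of the 3 AsPC1-R arrays, BxPC3 replicate 1 or 3, or BxPC3-R replicate 1 or 3 (adjusted p up to 0.156).

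SLC31A1, ATP7B and ABCC2 were not called in both lines. SLC31A1, the importer, changed by 0.39 (SE 0.08) in AsPC1-R and 0.16 (SE 0.08) in BxPC3-R and passed in AsPC1-R alone. ATP7B changed by 0.28 (SE 0.11) in AsPC1-R and -0.38 (SE 0.11) in BxPC3-R, at levels of 4.90 to 5.79 on all arrays, and passed in BxPC3-R. ABCC2 changed by 0.64 (SE 0.14) in AsPC1-R and 0.08 (SE 0.14) in BxPC3-R and passed in AsPC1-R. The mean change was called for SLC31A1 (0.28, adjusted p = 0.00243) and ABCC2 (0.36, adjusted p = 0.0185, or 0.113 in the additive model) but not for ATP7B (-0.05, adjusted p = 0.763).

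Of 20 nucleotide excision repair genes, 1 rose in both: RPA2, a subunit of the protein that coats single-stranded DNA. It changed by 0.40 (SE 0.13) in AsPC1-R and 0.65 (SE 0.13) in BxPC3-R, and the call in AsPC1-R (adjusted p = 0.0482) was lost without AsPC1 replicate 1 or 2, any 1 of the AsPC1-R arrays, BxPC3 replicate 2 or 3, or BxPC3-R replicate 1 or 2 (adjusted p up to 0.185). ERCC1, the nuclease subunit often measured in platinum response, changed by 0.28 (SE 0.12) in AsPC1-R and 0.71 (SE 0.12) in BxPC3-R. It passed in BxPC3-R and for the mean (adjusted p = 0.00069) but not in AsPC1-R (adjusted p = 0.104). Of 24 genes of the Fanconi anaemia pathway and homologous recombination, which handle crosslinks, FANCI, of the complex that recognises crosslinks, was among those that rose in both. It read 10.12, 10.25 and 10.36 in AsPC1, 10.68, 10.58 and 10.70 in AsPC1-R, 10.92, 10.96 and 10.97 in BxPC3 and 11.27, 11.28 and 11.29 in BxPC3-R. Its derivatives lay above their parents without overlap, and the change was 0.41 (SE 0.08) in AsPC1-R and 0.33 (SE 0.08) in BxPC3-R. Limma called none of the 5 mismatch repair, 12 translesion synthesis or 15 damage checkpoint genes in both in 1 direction (0 at an unadjusted p under 0.05 too).

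Of 32 glutathione and thioredoxin genes, 2 fell in both lines and 0 rose (0 at an unadjusted p under 0.05 too). MGST3, a membrane glutathione transferase, changed by -0.44 (SE 0.09) in AsPC1-R and -0.64 (SE 0.09) in BxPC3-R. GSTA4, which detoxifies products of lipid peroxidation, changed by -0.33 (SE 0.10) in AsPC1-R and -0.43 (SE 0.10) in BxPC3-R. The AsPC1-R call of GSTA4 was lost without AsPC1 replicate 1 or 3 or AsPC1-R replicate 3 (adjusted p up to 0.119). Of 23 p53 targets 1 rose in both, TIGAR, a phosphatase that slows glycolysis, by 0.60 (SE 0.11) in AsPC1-R and 0.88 (SE 0.11) in BxPC3-R. TIGAR read 5.95, 6.04 and 5.97 in AsPC1, 6.65, 6.65 and 6.48 in AsPC1-R, 6.74, 7.17 and 7.03 in BxPC3 and 7.78, 7.78 and 8.03 in BxPC3-R.

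Of 34 mitosis genes 16 had a called mean fall (8.53% of all genes), while 2 fell in both lines. In AsPC1-R 19 of the 34 fell (8.64% of all genes), and in BxPC3-R 2 fell and 2 rose (11% and 9.75%). ASPM, a spindle pole protein, changed by -0.71 (SE 0.08) in AsPC1-R and -0.33 (SE 0.08) in BxPC3-R. CENPF, a kinetochore protein, changed by -0.77 (SE 0.08) in AsPC1-R and -0.28 (SE 0.08) in BxPC3-R. CENPF lost its call in BxPC3-R without BxPC3 replicate 2 or 3 or any 1 of the BxPC3-R arrays (adjusted p up to 0.0978). Of 40 DNA replication genes, 22 rose in BxPC3-R (9.75% of all genes), while 6 fell and 1 rose in AsPC1-R (8.64% and 11.6%). Of the 40, 5 fell in AsPC1-R but rose in BxPC3-R (1.95% of all genes). The 1 that rose in AsPC1-R, CDC6, which loads the replicative helicase, rose in both. It read 10.73, 10.69 and 10.77 in AsPC1, 11.23, 11.27 and 11.32 in AsPC1-R, 11.27, 11.43 and 11.45 in BxPC3 and 11.77, 11.80 and 11.89 in BxPC3-R. Its arrays did not overlap within either line, with a change of 0.54 (SE 0.08) in AsPC1-R and 0.44 (SE 0.08) in BxPC3-R.

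Immediate early genes, which respond quickly to growth signals and to handling, held 3 shared falls among 19 members of their list with heat shock genes. EGR1 read 11.79, 11.68 and 11.38 in AsPC1, 10.54, 10.52 and 10.40 in AsPC1-R, 10.97, 10.76 and 10.56 in BxPC3 and 10.40, 10.16 and 10.12 in BxPC3-R. All 6 derivative arrays of EGR1 lay below all 6 parental arrays, and the change was -1.13 (SE 0.13) in AsPC1-R and -0.54 (SE 0.13) in BxPC3-R. JUNB changed by -0.49 (SE 0.10) in AsPC1-R and -0.53 (SE 0.10) in BxPC3-R. FOS changed by -0.99 (SE 0.11) in AsPC1-R and -0.40 (SE 0.11) in BxPC3-R. FOS lost its call in BxPC3-R when BxPC3 replicate 2 or BxPC3-R replicate 3 was left out (adjusted p = 0.0774 and 0.0594).

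Of 31 epithelial genes, 3 fell in both lines and 0 rose (0 at an unadjusted p under 0.05 too). The tight junction gene CLDN7 read 8.46, 8.70 and 8.62 in AsPC1, 7.94, 7.98 and 7.83 in AsPC1-R, 8.78, 8.80 and 8.66 in BxPC3 and 8.03, 8.01 and 7.94 in BxPC3-R. Every derivative array of it lay below every parental array, and the change was -0.68 (SE 0.09) in AsPC1-R and -0.75 (SE 0.09) in BxPC3-R. The desmosome gene DSC2 changed by -0.28 (SE 0.08) in AsPC1-R and -0.48 (SE 0.08) in BxPC3-R. It lost its call in AsPC1-R without AsPC1 replicate 1 or 2 or AsPC1-R replicate 2 (adjusted p up to 0.0873). The epithelial transcription factor ELF3 changed by -0.54 (SE 0.10) in AsPC1-R and -0.37 (SE 0.10) in BxPC3-R. It lost its call in BxPC3-R without BxPC3 replicate 2 or 3 or BxPC3-R replicate 2 (adjusted p up to 0.0674). Of 33 mesenchymal genes 1 rose in both, SNAI2, a repressor of epithelial genes, by 0.33 (SE 0.09) in AsPC1-R and 0.46 (SE 0.09) in BxPC3-R. The SNAI2 call in AsPC1-R had an adjusted p of 0.0515 without AsPC1 replicate 3 and 0.0743 without AsPC1-R replicate 3.

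Among adhesion and matrix genes, the integrin gene ITGB6 read 9.89, 9.91 and 9.86 in AsPC1, 10.38, 10.41 and 10.35 in AsPC1-R, 10.72, 10.77 and 10.83 in BxPC3 and 11.21, 11.15 and 11.21 in BxPC3-R. It rose by 0.49 (SE 0.07) in AsPC1-R and 0.42 (SE 0.07) in BxPC3-R, the 1 shared rise among 28 integrins and laminins. MMP7, a secreted metalloprotease, read 12.45, 12.26 and 12.34 in AsPC1, 11.79, 11.87 and 11.77 in AsPC1-R, 8.31, 8.67 and 8.14 in BxPC3 and 7.69, 7.81 and 7.71 in BxPC3-R. It changed by -0.54 (SE 0.11) in AsPC1-R and -0.63 (SE 0.11) in BxPC3-R, and neither gene showed overlap between parent and derivative. MMP15, a membrane-bound metalloprotease, changed by -0.49 (SE 0.11) in AsPC1-R and -0.38 (SE 0.11) in BxPC3-R, the other shared fall among 32 matrix proteases and inhibitors. Its call in BxPC3-R was lost without BxPC3 replicate 1 or 2 or BxPC3-R replicate 1 or 3 (adjusted p up to 0.0929). The basal-like subtype list held 2 shared rises of 18. The focal adhesion gene TNS4 changed by 0.93 (SE 0.12) in AsPC1-R and 0.51 (SE 0.12) in BxPC3-R, and the keratin gene KRT15 changed by 0.70 (SE 0.13) in AsPC1-R and 0.50 (SE 0.13) in BxPC3-R. Of 14 stem cell markers, 2 rose in both, CD24 and the kinase gene DCLK1. DCLK1 changed by 0.62 (SE 0.18) in AsPC1-R and 1.53 (SE 0.18) in BxPC3-R, at levels of 4.48 to 5.65 in AsPC1 and AsPC1-R. Its call in AsPC1-R was lost without AsPC1 replicate 3 or any 1 of the AsPC1-R arrays (adjusted p up to 0.0704).

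EREG, a ligand of the EGF receptor and the 1 shared rise among 19 ERBB receptors and ligands, read 9.47, 9.53 and 9.46 in AsPC1, 10.08, 10.18 and 10.17 in AsPC1-R, 9.46, 9.79 and 9.79 in BxPC3 and 10.33, 10.23 and 10.24 in BxPC3-R. Its derivatives lay above their parents without overlap, by 0.66 (SE 0.09) in AsPC1-R and 0.58 (SE 0.09) in BxPC3-R. SPRED1, a feedback inhibitor of RAS and the 1 shared rise among 19 genes of MAPK output, changed by 0.27 (SE 0.09) in AsPC1-R and 0.31 (SE 0.09) in BxPC3-R. Both changes are small, and 1 or the other call of SPRED1 was lost without AsPC1 replicate 1 or 3, AsPC1-R replicate 1 or 3, BxPC3 replicate 1 or 3, or any 1 of the BxPC3-R arrays (adjusted p up to 0.173). NUAK2, a kinase and YAP target, was the 1 shared fall of its 23-member list, with -0.28 (SE 0.08) in AsPC1-R and -0.47 (SE 0.08) in BxPC3-R. Its call in AsPC1-R was lost without AsPC1 replicate 2 or 3 or AsPC1-R replicate 1 (adjusted p up to 0.129).

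Of 50 axon guidance genes, which steer growing nerve fibres and also act in tumours, 1 rose and 2 fell in both. NRP2, a co-receptor for semaphorins and VEGF-C, rose by 0.65 (SE 0.13) in AsPC1-R and 0.50 (SE 0.13) in BxPC3-R, with the BxPC3-R call lost without BxPC3 replicate 1 or BxPC3-R replicate 3 (adjusted p = 0.0526 and 0.055). Its other, dimmer probe set changed by 0.08 and 0.21. PLXND1, a semaphorin receptor, changed by -0.33 (SE 0.10) in AsPC1-R and -0.54 (SE 0.10) in BxPC3-R, with the AsPC1-R call lost without AsPC1 replicate 1 or AsPC1-R replicate 1 or 2 (adjusted p up to 0.103). EFNA1, a ligand of Eph receptors, changed by -0.56 (SE 0.13) in AsPC1-R and -0.51 (SE 0.13) in BxPC3-R, with the BxPC3-R call lost without BxPC3 replicate 1 or BxPC3-R replicate 1 (adjusted p = 0.066 and 0.0724). FAT2, a giant cadherin and with DSC2 the other shared fall among 29 cadherins and protocadherins, changed by -0.63 (SE 0.16) in AsPC1-R and -1.22 (SE 0.16) in BxPC3-R. Its AsPC1-R call was lost without AsPC1 replicate 1 or AsPC1-R replicate 1 (adjusted p = 0.0624 and 0.0676), and its level in AsPC1 is below 6.22.

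PDK1, a kinase that inhibits pyruvate dehydrogenase, was the 1 shared fall among 29 genes of hypoxia and glycolysis. It read 9.84, 10.09 and 9.90 in AsPC1, 9.51, 9.40 and 9.35 in AsPC1-R, 9.42, 9.46 and 9.44 in BxPC3 and 9.10, 9.07 and 9.09 in BxPC3-R. Its groups did not overlap within either line, and it changed by -0.52 (SE 0.08) in AsPC1-R and -0.35 (SE 0.08) in BxPC3-R. SLC7A6, an amino acid exchanger and the 1 shared rise among 27 amino acid transporters, changed by 0.60 (SE 0.09) in AsPC1-R and 0.45 (SE 0.09) in BxPC3-R. SLC29A2, which carries nucleosides and was the 1 shared fall among 22 genes of nucleotide and gemcitabine handling, read 8.80, 8.79 and 8.71 in AsPC1, 8.12, 8.02 and 8.14 in AsPC1-R, 7.97, 8.06 and 8.0 in BxPC3 and 7.63, 7.79 and 7.62 in BxPC3-R. It changed by -0.67 (SE 0.08) in AsPC1-R and -0.33 (SE 0.08) in BxPC3-R, again with no overlap. ABCF2, an ABC protein with no transport domain, rose by 0.45 (SE 0.12) in AsPC1-R and 0.42 (SE 0.12) in BxPC3-R, the 1 shared rise among 24 ABC genes outside the platinum list. Its calls were lost in AsPC1-R without AsPC1 replicate 1 or 2 or AsPC1-R replicate 2 or 3, and in BxPC3-R without BxPC3 replicate 1 or BxPC3-R replicate 1 or 3 (adjusted p up to 0.117). ABCC4 was also the 1 shared rise among 22 prostaglandin genes.

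Several lists with many changed genes in each line held no change shared by both. Of 42 interferon-stimulated genes, 34 rose in AsPC1-R and 21 fell in BxPC3-R, 18 did both, and 0 were called in both in 1 direction. Over all genes 11.6% rose in AsPC1-R, 11% fell in BxPC3-R, 3.43% did both and 2.36% were called in both in 1 direction. Averaging the lines still gave 24 mean rises and 4 mean falls on the interferon list (9.66% and 8.53% of all genes). Of the 32 measured genes of NF-kB signalling and inflammatory cytokines, 20 rose in AsPC1-R and fell in BxPC3-R, 0 changed in 1 direction, and the means gave 5 rises and 9 falls. Among 23 targets of NRF2, the regulator of antioxidant genes, 14 moved in opposite directions and 0 in 1, and the means gave 6 rises and 3 falls. The 13 antigen presentation genes held 4 opposite calls and 0 shared ones. Ribosomal proteins held 0 of either kind among 22. Of all 53 lists, 24 held no shared call by limma, and at an unadjusted p under 0.05 each of these held 0 to 3 shared genes, 0 for the interferon, NF-kB, antigen presentation and ribosomal lists and 2 rises for the NRF2 targets.

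**Figure D4:**
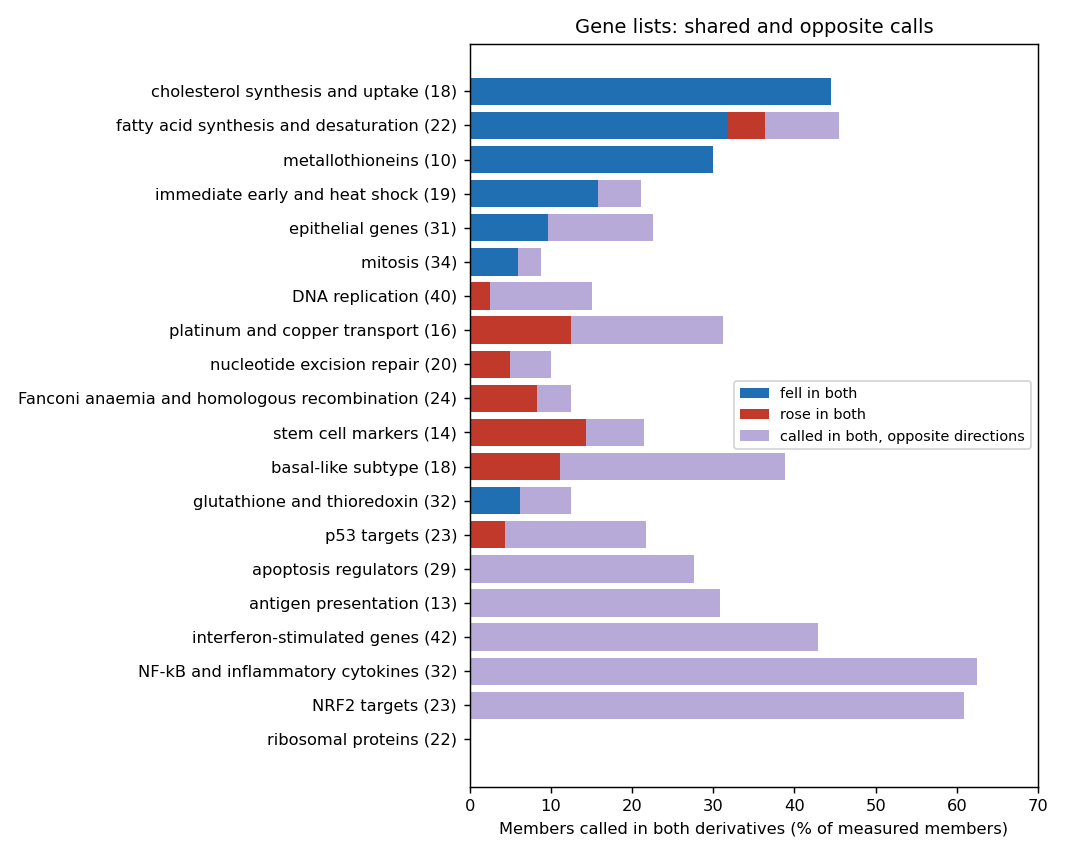
Share of the measured members of 20 gene lists (number in parentheses) called in both derivatives by limma at an adjusted p under 0.05 (horizontal, %), split into those that fell in both, rose in both, or moved in opposite directions. Cholesterol (8 of 18), fatty acid (7 of 22) and metallothionein (3 of 10) genes hold the longest bars of shared falls, and the NF-kB, NRF2 and interferon lists hold opposite calls only.

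The genes called in opposite directions with the largest smaller change were inflammatory on one side and of mixed function on the other. SAA1, CXCL5 and C3, an acute-phase gene, a chemokine and a complement gene, changed by 4.80 and -4.04, 4.07 and -3.04 and 3.75 and -3.09 in AsPC1-R and BxPC3-R. SYTL5 (-1.58 and 2.38), HPGD (-1.39 and 1.35), PKIB (-1.17 and 1.15) and SMPDL3A (-1.19 and 1.14) went the other way. For HPGD, which breaks down prostaglandins, the mean of both lines was -0.02 (SE 0.08), with an adjusted p of 0.904.

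In windows of 50 neighbouring genes, the most found was 5 rises or 6 falls. The 6 falls lay on chromosome 1, where ASPM, INAVA, CSRP1, NAV1, ELF3 and PPP1R12B fell in both in 1 window and CSRP1, NAV1, ELF3, PPP1R12B, PIK3C2B and MDM4 in the next, which overlaps it. A window on chromosome 16 with 4 falls held MT2A, MT1E, MT1F and MMP15. Of 576 genes on chromosome 15, 14 rose (2.43%) and 1 fell (0.17%), and of 587 on chromosome 14, 15 rose (2.56%) and 3 fell (0.51%). Of 977 genes on chromosome 6, 4 rose (0.41%) and 12 fell (1.23%).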

How the data were processed

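Total RNA of 12 samples, 3 per group, was amplified with the NuGEN Applause and Encore kits and hybridized to Affymetrix arrays, per the labels' protocols. The authors deposited 1 log2 level for each probe set and array. Per the submitters' processing notes these came from Expression Console with RMA, a method that subtracts background, brings arrays to 1 common distribution and combines the probes of a set. Software versions and the genome build were not given in the sources used here. After RMA the values carry no measure of depth.

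Of 33297 probe sets, 19460 have 1 gene symbol, 1754 several and 12083 no symbol or no entry in the probe table. A gene with several (769 genes) was represented by its brightest probe set on average over the arrays, leaving 18417 genes. By gene number, 18389 matched RefSeq (GRCh38.p14), used for gene order, and 14237 had a promoter window. No gene was filtered out.

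limma 3.58.1 in R 4.3.3 (lmFit, eBayes) fitted a mean for each of the 4 groups on the 12 arrays, with 8 residual and 5.47 prior degrees of freedom. Contrasts were both within-line changes, their mean (line as a block) and their difference. Tests were two-sided with Benjamini-Hochberg adjustment over all genes. "Rose" or "fell in both" means an adjusted p under 0.05 in each line with 1 sign. SE is limma's. A gene was called expressed at a highest group mean of 6.554, the median of all values: 424 of the 435 shared genes were.

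The members, the 53 gene lists (1170 of 1285 memberships measured) and the tests were chosen with earlier results of these data known. Lists are described by counts and medians. Named genes were, by rule, the 12 per direction with the largest smaller change among expressed genes called in both, up to 3 shared members of each list, the platinum genes SLC31A1, ATP7A, ATP7B, ABCC2 and ERCC1, the deleted genes SMAD4 and CDKN2A, and 4 genes per opposite pattern. Further members of the cholesterol, fatty acid and metallothionein lists and genes of windows were named beside them after their values were seen. One result that the rule names is not reported here.

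On simulated data, 74% of genes given a log2 change of 0.585 in both lines, and 99% of those given 1, were called in both. Of genes changed in 1 line or in opposite directions 0% were, and of unchanged genes 0.0111%. The simulation left 18017 of 18417 genes unchanged, with independent noise, whereas in the data 12287 were called in neither line. With more changed genes the adjustment is less strict, so these shares may understate false shared calls in the data. Deviations of same-numbered replicates of a parent and its derivative had correlations of -0.239 to 0.171, highest for replicate 1 of BxPC3. With 3 arrays per group these do not settle whether the numbers pair the arrays, and the main fit left pairing out. The alternatives were replicate blocks, an additive model, dim genes left out, other normalizations, eBayes with trend and robust, array weights, separate fits per line, the mean over probe sets, stricter thresholds, and each array left out.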

Additional observations from a re-analysis of the deposited data

Results flagged for a closer look

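The change in AsPC1-R differed from that in BxPC3-R, by limma's test of the difference, for 28 of the genes named by rule. Values are the AsPC1-R change minus the BxPC3-R change (log2). The largest were genes called in opposite directions: 10.31 for SAA2, 8.83 for SAA1, 7.12 for CXCL5 and 6.85 for C3, which rose in AsPC1-R and fell in BxPC3-R, and -3.96 for SYTL5, -2.74 for HPGD, -2.32 for SMPDL3A and -2.32 for PKIB, which did the reverse.

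Among genes that rose in both, the difference was 2 for CNN3, 1.82 for CD24, 0.99 for ABCC4 and 0.79 for IL1RAPL2, larger in AsPC1-R. It was -1.18 for CPA4 and -0.91 for DCLK1, larger in BxPC3-R. Among genes that fell in both, SERPINB1 (1.58), KRT23 (0.88), INSIG1 (0.57) and SEL1L3 (0.40) fell by more in BxPC3-R. EGR1 (-0.60), FOS (-0.59), STARD4 (-0.56), CENPF (-0.49), ASPM (-0.38), FADS2 (-0.36) and SLC29A2 (-0.34) fell by more in AsPC1-R. SLC29A2 encodes a nucleoside transporter and changed by -0.67 (SE 0.08) in AsPC1-R and -0.33 (SE 0.08) in BxPC3-R.

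For CDKN2A (0.70), ATP7B (0.65) and ABCC2 (0.56) 1 line alone passed. CDKN2A is deleted in BxPC3, where its change of -0.47 between readings of 6.22 and 5.75 was still called (adjusted p = 0.0249).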

How the results depend on the processing

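No called mean change of the 77 genes named by rule reversed under the alternatives. Other genes and single lines were not checked for this, nor were the stricter thresholds, which leave the changes as they are. Of the 25 alternatives, those for the difference between the lines, the opposite calls and the list members were added after the data were seen. An additive model of line and resistance, which puts the difference between the lines into the error, gave 1178 called mean changes, and SAA2, C3, CXCL5, SYTL5 and ABCC2 no longer passed. Without dim genes 5125 of the 12328 genes left had the same sign, a share of 41.6% against 42.2% of all genes. Array weights gave 672 shared genes, 381 of them rises. Tested against a 1.5-fold change, 142 mean changes, 933 differences between the lines and 7 shared genes remained called, 5 rises and 2 falls, with 0, 1 and 0 shared falls among the cholesterol, fatty acid and metallothionein genes. At an adjusted p under 0.01 there were 1945 mean changes, 2998 differences and 185 shared genes (98 rises, 87 falls). Adjusting the larger of both p-values gave 234 shared genes (114 rises, 120 falls). Centring arrays on their medians shifted the mean change by 0.019 and gave 247 rises and 181 falls.

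With each array left out in turn, 160 to 261 genes rose and 150 to 210 fell in both, 313 to 471 together. Same signs ranged from 7302 to 8389, mean changes from 2737 to 3587, differences from 3961 to 5296, and shared falls from 7 to 8 among cholesterol, 6 to 8 among fatty acid and 2 to 3 among metallothionein genes. Of 73 named shared genes and members of those 3 lists, 51 kept both calls throughout. The replicate number as a block gave 209 rises and 186 falls, and a block within each line 160 and 141.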

Other observations

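Both groups below were noticed among the shared genes and then counted over a list written after the values were seen, so the counts are descriptions. The proteasome is the protease that degrades ubiquitin-tagged proteins. Of 31 subunit genes measured, 5 rose in both (1.27% of all genes did), 22 were positive in both lines (18.4% of all genes) and 2 negative (23.8%), 11 had a called mean rise (9.66%), and the median mean change was 0.175. The 5 were the ATPase genes PSMC4 (0.54 and 0.60 in AsPC1-R and BxPC3-R) and PSMC1 (0.32 and 0.26), and PSMD8 (0.38 and 0.65), PSMD2 (0.38 and 0.42) and PSMD11 (0.64 and 0.27) of the regulatory particle. Without BxPC3 replicate 2, 4 of the 5 passed, and PSMC1 did not (adjusted p = 0.107 in BxPC3-R).

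Of 46 measured genes of fatty acid oxidation and branched-chain amino acid breakdown, 6 fell in both (1.1% of all genes did), 15 were negative in both lines (23.8% of all genes) and 4 positive (18.4%), and the median mean change was -0.089. Beside PECR the 6 were the mitochondrial genes HADH (-0.49 and -0.41), DECR1 (-0.42 and -0.44), ACADSB (-0.58 and -0.36), HIBCH (-0.41 and -0.50) and PCCA (-0.53 and -0.77). Without BxPC3 replicate 2, 5 fell in both, and HADH did not pass (adjusted p = 0.0545 in BxPC3-R). PPARA, the nuclear receptor that switches on fatty acid oxidation, fell too (-0.51 and -0.73), as did both NADP-linked isocitrate dehydrogenase genes, IDH1 (-0.33 and -0.74) and IDH2 (-0.54 and -0.90). These 3 were also named after their values were seen.

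Of the 202 shared falls 101, and of the 233 shared rises 147, had their highest BxPC3 level on BxPC3 replicate 2, against 7679 of all 18417 genes. Of the shared falls 135, and of the shared rises 59, stood higher in AsPC1 than in BxPC3. The share of all genes that did so is not given here, so these counts are a description. The part of BxPC3 replicate 2 in the shared calls was tested only by leaving it out.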
